A study of Mus musculus with 24 samples.

Results

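The final segment of the kidney tubule sets how much water and sodium leave in the urine, and 8 genes of its water and sodium channels are described here in kidneys of mice with X-linked Alport syndrome (XLAS). They are Aqp2, Aqp3 and Aqp4 (water channels), Avpr2 (the vasopressin V2 receptor), Scnn1a, Scnn1b and Scnn1g (the subunits of the epithelial sodium channel, ENaC) and Fxyd4 (a small regulator of the sodium pump). They were chosen by name as the rows of the deposited table that carry these symbols, 8 of 55487 genes. All 8 passed the filter on low counts that left 18339 genes for testing.

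In principal cells of the collecting duct, vasopressin binds its V2 receptor, raises cyclic AMP and moves aquaporin 2 into the apical membrane, and water then leaves the cell through aquaporins 3 and 4 on the other side. Sodium enters the same cells through ENaC, whose alpha, beta and gamma subunits are products of Scnn1a, Scnn1b and Scnn1g, and is pumped out by the sodium pump. Aldosterone raises sodium entry, and Sgk1 is a kinase in that response.

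The study asked whether losing 1 copy of Nbl1, which encodes a secreted antagonist of bone morphogenetic proteins, changes the kidney in XLAS, a disease of the glomerular basement membrane caused by loss of the collagen chain that Col4a5 encodes. Bulk RNA of the kidney was sequenced from 24 male mice aged 15 weeks, all with XLAS (Nbl1xCol4a5 cross) and all on the B6 background. Of these, 13 were heterozygous for Nbl1 (HET) and 11 wild type (WT), and batch 1 held 6 HET and 6 WT mice and batch 2 held 7 HET and 5 WT mice. No mouse without XLAS was analysed here, so every difference below is between Nbl1 genotypes, or between batches, within diseased kidneys. The labels give no detail of the Nbl1 allele and do not say how many animals or litters share a parent, and p-values measure the spread between these libraries.

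Libraries held 29551337 to 33019871 counts in batch 1 and 36380374 to 50746652 in batch 2. As a check of the labels, Nbl1 averaged 5.05 ± 2.09 CPM (counts relative to library size after TMM scaling; SD, n = 6) in HET and 6.44 ± 1.61 (n = 6) in WT kidneys of batch 1, and 5.55 ± 1.37 (n = 7) and 10.8 ± 2.94 (n = 5) in batch 2. The libraries labelled HET replicate 6, WT replicate 1 and WT replicate 2 went against their labels: Htr6, the gene beside Nbl1, had 0 counts in the first and 26 and 14 in the others, against 8 to 49 in the other HET and 0 to 2 in the other WT libraries. Their Nbl1 levels were 9.24, 5.41 and 3.62 CPM. Values without these libraries are also given for Aqp2 over all mice, for Aqp2 and Aqp3 in batch 1, for the ratios of Aqp2 to Aqp3 and Aqp4, and for the correlation of Aqp2 with Aqp3. Collecting duct genes outside the 8 were present, with Gata3 at 6.78 ± 1.84 FPKM, Elf5 at 1.72 ± 0.39 FPKM and Tfcp2l1 at 53.0 ± 9.48 FPKM (SD, n = 24). No library had 0 counts for a channel gene.

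The stretch upstream of the gene start is shown for 2 pairs that the results below turn on. The levels of Aqp2 and Aqp3 passed the test for varying together between mice on log2 CPM by Pearson r, but not by Spearman's rho. That call was lost when any of several single mice was left out. Scnn1b and Scnn1g lie on the same strand of chromosome 7 with 96562 bases between them. Their levels did not pass the test for varying together on log2 CPM, though they did on log2(TPM + 1). Each line gives the 250 bases before the start in RefSeq on GRCm38.p6, 5′ to 3′ on the gene's strand. The windows are chr15:99578806-99579055 (plus strand) for Aqp2, chr4:41098184-41098433 (minus strand) for Aqp3, chr7:121864788-121865037 (plus strand) for Scnn1b and chr7:121734229-121734478 (plus strand) for Scnn1g. Capitals mark matches to TGACG (the core of the cyclic AMP response element), GATAA (the core bound by GATA factors) and AGAACA (a half-site of steroid receptors), read on both strands.
Aqp2: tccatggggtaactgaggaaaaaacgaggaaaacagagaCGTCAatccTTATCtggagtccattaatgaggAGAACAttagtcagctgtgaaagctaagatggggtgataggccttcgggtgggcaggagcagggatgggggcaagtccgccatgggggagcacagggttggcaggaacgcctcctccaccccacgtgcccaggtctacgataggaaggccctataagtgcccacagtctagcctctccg
Aqp3: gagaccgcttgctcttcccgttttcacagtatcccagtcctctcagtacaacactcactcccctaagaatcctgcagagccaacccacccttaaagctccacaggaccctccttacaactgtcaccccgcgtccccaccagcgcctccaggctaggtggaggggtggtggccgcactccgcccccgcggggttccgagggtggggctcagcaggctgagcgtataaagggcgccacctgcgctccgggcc
Scnn1b: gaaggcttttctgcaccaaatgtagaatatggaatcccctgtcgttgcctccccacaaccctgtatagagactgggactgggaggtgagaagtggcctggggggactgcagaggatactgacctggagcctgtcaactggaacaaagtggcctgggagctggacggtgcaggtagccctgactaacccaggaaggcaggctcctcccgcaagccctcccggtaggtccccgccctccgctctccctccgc
Scnn1g: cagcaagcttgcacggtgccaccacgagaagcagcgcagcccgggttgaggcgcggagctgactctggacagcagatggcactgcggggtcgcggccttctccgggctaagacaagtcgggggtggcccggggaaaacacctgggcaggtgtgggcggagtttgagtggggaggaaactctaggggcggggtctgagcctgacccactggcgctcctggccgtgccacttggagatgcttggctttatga

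The Aqp2 window held 1 match to each of these motifs, and the windows of Aqp3, Scnn1b and Scnn1g held none. In Aqp2 the TGACG match was on the opposite strand and began 211 bases before the start, the GATAA match was also on the opposite strand and began at 202, and the AGAACA match was on the gene's strand and began at 179. The full palindrome TGACGTCA, which contains TGACG, and TGGAAA, the core bound by NFAT5 and other factors with a Rel domain, were searched too and were in none of the 4 windows. Of 32851 mouse promoter windows of this length, 17.8% held TGACG, 22.6% held GATAA, 16.1% held AGAACA, 18.6% held TGGAAA and 1.55% held TGACGTCA. Windows of Avpr2 and Fxyd4 were searched as well: that of Avpr2 held 1 GATAA and 2 AGAACA matches and that of Fxyd4 none. These matches are letters found in a window, and the data hold no measurement of binding there. RefSeq windows were matched for 6 of the 8 genes, and those of Aqp4 and Scnn1a were not among them.

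Per transcript length, Aqp2 was the most abundant of the 8 in every kidney. Over the 24 libraries it averaged 56.9 ± 9.38 FPKM (fragments per kilobase of transcript, scaled to library depth; SD, n = 24), with a range of 39.3 to 77.2 FPKM. Aqp3 followed at 35.7 ± 3.91 FPKM and was below Aqp2 in 24 of 24 libraries, with a median ratio of Aqp2 to Aqp3 of 1.58 and a range of 1.29 to 1.93. Fxyd4, at 23.9 ± 3.50 FPKM, and Scnn1a, at 22.5 ± 2.46 FPKM, could not be ordered: Fxyd4 was higher in 15 of 24 libraries. Scnn1b averaged 10.96 ± 1.04 FPKM and Scnn1g 10.2 ± 0.99 FPKM, with Scnn1b higher in 19 of 24, so these neighbours were also not separated in every kidney. Aqp4 was at 8.20 ± 1.00 FPKM and Avpr2, the lowest, at 5.0 ± 0.82 FPKM. Each of the other steps in the order, from Aqp3 to Fxyd4, from Scnn1a to Scnn1b, from Scnn1g to Aqp4 and from Aqp4 to Avpr2, held in 24 of 24 libraries.

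**Figure D1:**
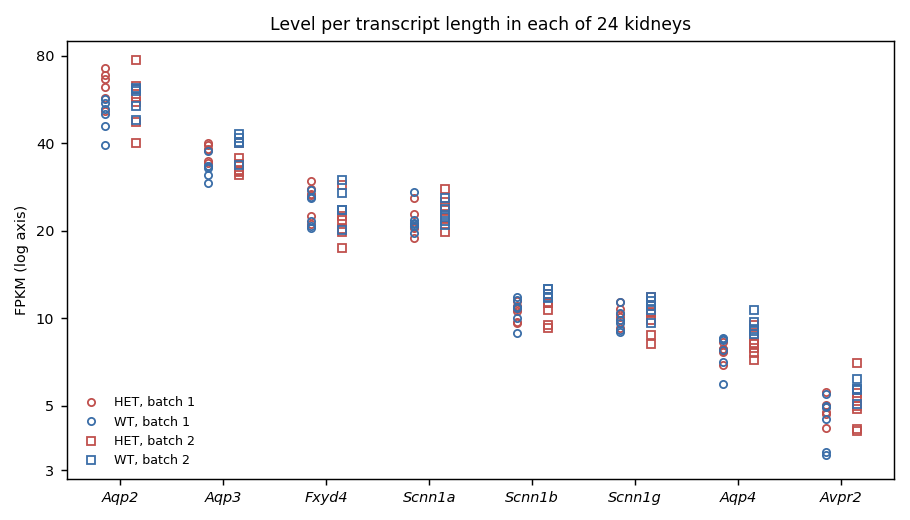
FPKM of each gene (log axis) in each of 24 kidneys, ordered by level. Each point is 1 mouse, with circles for batch 1, squares for batch 2, red for HET and blue for WT. Aqp2 spans 39.3 to 77.2 FPKM and Avpr2, at the other end, averages 5.0 FPKM.

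Ratios among the 3 ENaC subunit genes were taken in each kidney. The ratio of Scnn1b to Scnn1a, per transcript length, had a median of 0.49 over 24 mice and a range of 0.38 to 0.56. The ratio of Scnn1g to Scnn1a had a median of 0.46 and a range of 0.38 to 0.60, and that of Scnn1b to Scnn1g a median of 1.08 and a range of 0.85 to 1.28. Relative to Scnn1a, the water channel gene Aqp2 had a median ratio of 2.49, with a range of 1.89 to 3.84.

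No channel gene passed the threshold for a genotype difference. With HET compared with WT over all mice and batch as a covariate, edgeR's quasi-likelihood test called 0 of the 8 genes at an adjusted p below 0.05 and 0 of 18339 genes in all (0.0%), and 1 of the 8 had an unadjusted p below 0.05, against 4.12% of all genes. DESeq2 also called 0 of the 8 and found 1 at an unadjusted p below 0.05. The log2 fold changes of the 8 ran from -0.04 (Scnn1b) to 0.24 (Aqp2), with a median of 0.03 beside 0.01 over all genes, and 6 of 8 were positive. The count of positive values was 5 of 8 in batch 1 and 3 of 8 in batch 2, and over all mice it was 3 of 8 by library size scaling and 2 of 8 on log2(TPM + 1). In bulk kidney a difference in these genes can come from the number of principal cells or from RNA per cell, and these cannot be told apart.

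Aqp2 (ENSMUSG00000023013, chr15:99579055-99584547, protein coding), the vasopressin-regulated channel of the apical membrane, had the largest genotype difference of the 8 over all mice. In batch 1, HET kidneys ranged from 58.3 to 77.9 CPM with a median of 71.4, and WT kidneys from 43.4 to 63.1 with a median of 58.5. All but 1 of these HET kidneys, 5 of 6, lay above every WT kidney. In batch 2, HET kidneys ranged from 58.5 to 95.6 CPM with a median of 74.5, and WT kidneys from 56.1 to 76.0 with a median of 68.4, with 3 of 7 HET kidneys above every WT kidney. The groups overlapped in both batches. Over all mice HET exceeded WT by 0.24 on the log2 scale (standard error 0.08, 95% interval 0.06 to 0.41), and edgeR gave p = 0.00946 before and 0.997 after adjustment. It was 0.31 (0.11 to 0.52) in batch 1, with an edgeR adjusted p of 1, and 0.14 (-0.14 to 0.42) in batch 2, with an adjusted p of 0.759. Exact two-sided permutation tests of log2 CPM gave an unadjusted p of 0.0108 in batch 1 and 0.298 in batch 2, among 16 such tests on the 8 genes and 2 batches.

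The Aqp2 difference was smaller when the 3 libraries that go against their labels were left out, at 0.19 with an interval of -0.00071 to 0.39 and an edgeR unadjusted p of 0.0508. In batch 1 it was then 0.27 (-0.0041 to 0.54), with an edgeR p of 0.0529 before and 1 after adjustment. There 4 of the remaining 5 HET kidneys lay above every one of the remaining 4 WT kidneys, and the exact permutation p was 0.0556. With each mouse of batch 2 left out in turn, the batch 2 difference ran from 0.076 (without HET replicate 11) to 0.20 (without HET replicate 10). It also depended on scaling. The TMM factors of batch 2 were 0.82 to 0.98 in HET and 0.97 to 1.05 in WT libraries, so that TMM raised HET relative to WT levels there. Scaled by library size alone, the Aqp2 difference in batch 2 was 0.02, and in deposited FPKM the HET and WT means of batch 2 were 57.4 ± 11.9 (SD, n = 7) and 57.1 ± 5.94 (n = 5). In batch 1 the difference by library size alone was 0.34, and FPKM means were 63.1 ± 7.77 (n = 6) in HET and 49.9 ± 6.42 (n = 6) in WT. Dropping TMM moved the median log2 fold change of all genes in batch 2 from 0.0012 to -0.13. Relative to that median, Aqp2 stood at 0.14 with TMM and at 0.15 without, Aqp3 at -0.10 and -0.09, and Scnn1a at 0.17 and 0.17.

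Aqp3 (ENSMUSG00000028435, chr4:41092722-41098183, minus strand), a water and glycerol channel of the basolateral membrane, had genotype differences of opposite sign in the 2 batches, neither past the threshold after adjustment. In batch 1, HET kidneys ranged from 49.8 to 56.0 CPM with a median of 53.3, and WT kidneys from 41.5 to 54.9 with a median of 49.2. In batch 2 the order was the other way, with HET at 51.9 to 63.4 (median 58.1) and WT at 50.6 to 68.6 (median 58.8), and groups overlapped in both. The log2 fold change was 0.14 (0.02 to 0.26) in batch 1, with an exact permutation p of 0.0476, and -0.10 (-0.24 to 0.04) in batch 2, with an exact permutation p of 0.361. Without the 3 libraries the batch 1 difference was 0.19 (0.06 to 0.31), with an exact permutation p of 0.00794 and an edgeR adjusted p of 1. All 5 remaining HET kidneys then lay above the 4 remaining WT kidneys, with a lowest HET value of 49.8 CPM and a highest WT value of 49.6. That permutation p is the smallest the test can give for these group sizes. With each mouse of batch 2 left out, the batch 2 difference ran from -0.15 (without WT replicate 9) to -0.044 (without WT replicate 7). Genotype by batch interaction was -0.22 (-0.41 to -0.03), and edgeR gave p = 0.027 before and 0.587 after adjustment. Aqp3 was the only one of the 8 with an unadjusted interaction p below 0.05, while 8.2% of all 18339 genes had one and 0.0% passed after adjustment. Without the 3 libraries the interaction was -0.28, with an edgeR adjusted p of 0.686. By library size alone it was -0.39, with an adjusted p of 0.0738, and the batch 2 difference was -0.22, with an adjusted p of 0.113.

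Aqp4 (ENSMUSG00000024411), the other basolateral water channel, showed no genotype difference past the threshold. HET and WT kidneys were at 29.9 ± 3.18 (SD, n = 6) and 30.4 ± 4.97 CPM (n = 6) in batch 1 and at 38.3 ± 3.07 (n = 7) and 38.7 ± 3.65 CPM (n = 5) in batch 2. The log2 fold change over all mice was -0.02, with an interval of -0.15 to 0.11. Avpr2 (ENSMUSG00000031390, chrX:73892102-73895502, plus strand), through which vasopressin acts, was at 7.45 ± 0.82 (n = 6) and 6.81 ± 1.25 CPM (n = 6) in batch 1 and at 9.04 ± 1.29 (n = 7) and 9.05 ± 0.90 CPM (n = 5) in batch 2. Its log2 fold change was 0.06 (-0.10 to 0.22). The exons of Avpr2 share 2347 of 2886 bases with exons of Arhgap4 on the opposite strand, and since the sources used here do not give the strand setting of the counting, reads of these genes cannot be told apart. Aqp4, Scnn1b and Fxyd4 overlap other genes in introns only.

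**Figure D2:**
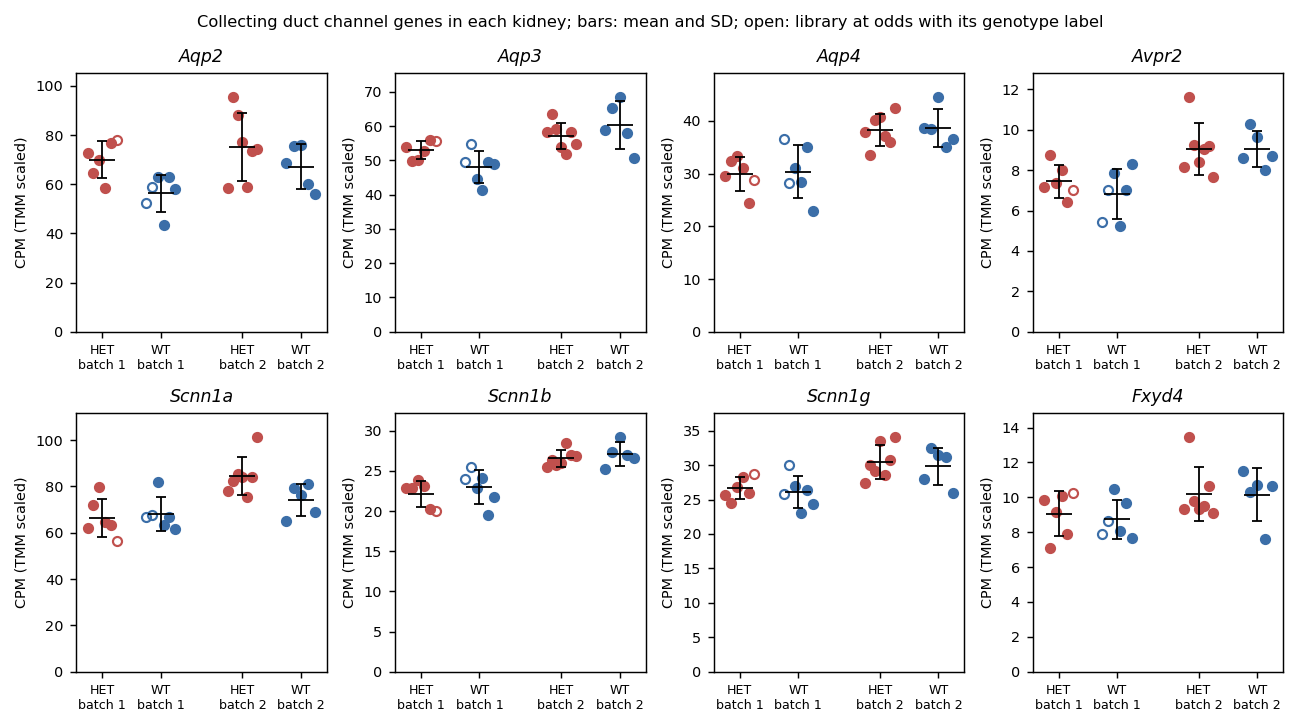
CPM after TMM scaling (y axis, from 0) of each channel gene in each mouse, by genotype and batch (x axis). Points are mice, bars are the mean and SD, and open points are the 3 libraries at odds with their genotype labels. Aqp2 of batch 1 shows 5 of 6 HET kidneys above every WT kidney, and batch 2 lies above batch 1 in most panels.

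Scnn1a (ENSMUSG00000030340, chr6:125320659-125344943, plus strand), the alpha subunit of ENaC, differed between genotypes at an unadjusted p below 0.05 in batch 2 only, where 8.34% of all genes did so and 1 of 18339 genes (0.00545%) passed after adjustment. The HET kidneys of batch 2 ranged from 75.6 to 101 CPM with a median of 84.0, and the WT kidneys from 65.1 to 81.1 with a median of 76.4. Of the HET kidneys, 5 of 7 lay above every WT kidney. The log2 fold change there was 0.17 (0.02 to 0.31), with an exact permutation p of 0.0354 and an edgeR adjusted p of 0.585. The unadjusted edgeR p was 0.0263, and it rose to 0.0511 without HET replicate 9, to 0.073 without WT replicate 9 and to 0.0864 without WT replicate 10. In batch 1, HET kidneys ranged from 56.4 to 79.7 CPM (median 63.9) and WT kidneys from 61.5 to 81.9 (median 66.7), and the log2 fold change was -0.04 (-0.21 to 0.14). The interaction was 0.22 (-0.01 to 0.46), with an edgeR adjusted p of 0.616. By library size alone the batch 2 difference of Scnn1a was 0.04.

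Scnn1b (ENSMUSG00000030873, chr7:121865038-121918514) and Scnn1g (ENSMUSG00000000216, chr7:121734479-121768475), the beta and gamma subunits, were at nearly equal CPM in the 2 genotypes after TMM scaling. Scnn1b was at 22.2 ± 1.64 (SD, n = 6) in HET and 22.96 ± 2.11 CPM (n = 6) in WT kidneys of batch 1, and at 26.6 ± 1.03 (n = 7) and 27.1 ± 1.45 CPM (n = 5) in batch 2. Its log2 fold change over all mice was -0.04, with an interval of -0.12 to 0.04. Scnn1g was at 26.6 ± 1.60 (n = 6) and 26.1 ± 2.37 CPM (n = 6) in batch 1 and at 30.5 ± 2.47 (n = 7) and 29.8 ± 2.73 CPM (n = 5) in batch 2, with a log2 fold change of 0.03 (-0.06 to 0.13). In batch 2 this depended on scaling. By library size alone the differences there were -0.17 for Scnn1b and -0.11 for Scnn1g, beside a median of -0.13 over all genes. In deposited FPKM of batch 2, Scnn1b was at 10.7 ± 1.04 in HET and 12.2 ± 0.41 in WT kidneys.

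Fxyd4 (ENSMUSG00000004988, chr6:117933559-117937692, minus strand), also known as CHIF, which raises the affinity of the sodium pump for sodium, was at 9.06 ± 1.28 (SD, n = 6) and 8.74 ± 1.11 CPM (n = 6) in HET and WT kidneys of batch 1. In batch 2 it was at 10.2 ± 1.55 (n = 7) and 10.2 ± 1.502 CPM (n = 5). The log2 fold change over all mice was 0.03 (-0.13 to 0.18), and its sign turned under several alternatives.

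**Figure D3:**
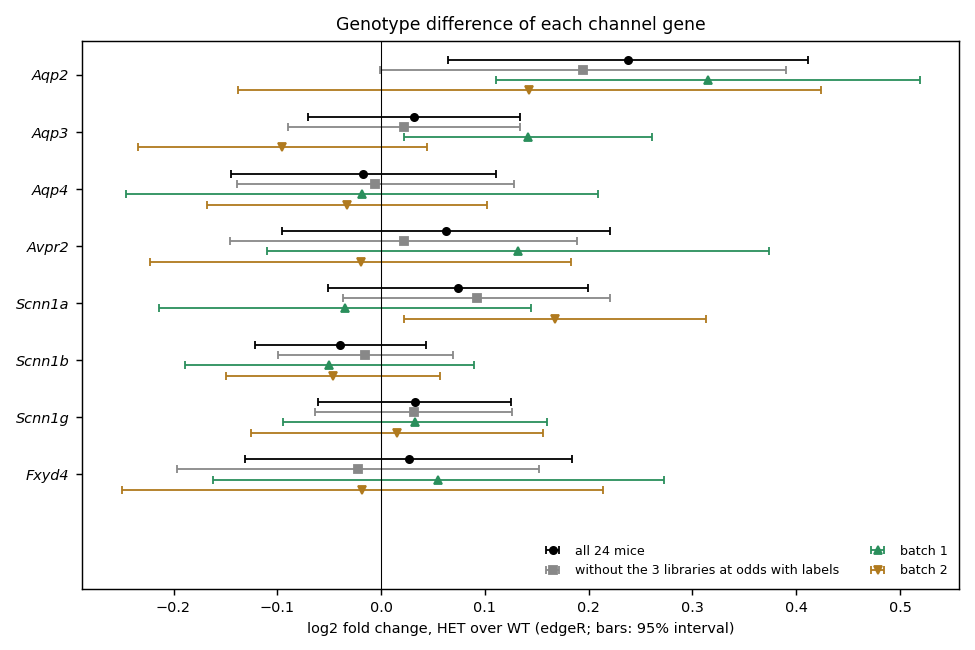
Log2 fold change of HET over WT (x axis) for each gene, with 95% intervals from edgeR, over all 24 mice, without the 3 libraries at odds with their labels, and in each batch. The intervals of Aqp2 over all mice (0.06 to 0.41) and in batch 1 (0.11 to 0.52), of Aqp3 in batch 1 and of Scnn1a in batch 2 lie above 0, none with an adjusted p below 0.05.

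In batch 1, 2 of the 8 genes, Aqp2 and Aqp3, had an unadjusted p below 0.05, beside 2.78% of all genes, and 0.0% of all genes passed after adjustment. It was 1 of the 8, Aqp3, when the 3 libraries at odds with their labels were left out. In batch 2 it was 1 of the 8, Scnn1a, beside 8.34% of all genes. Scaled by library size alone, 3 of the 8 had an unadjusted edgeR p below 0.05 in batch 2, beside 4334 of 18339 genes. The log2 fold change there was -0.22 for Aqp3, -0.17 for Scnn1b, -0.16 for Aqp4 and 0.04 for Scnn1a. Of the 8, 2 were positive, and the median over all genes was -0.13.

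Ratios between channel genes, which cancel the scaling of a library, were compared between genotypes by permuting genotype within batch (100000 permutations, two-sided, 8 ratios). The ratio of Aqp2 to Aqp3 averaged 1.69 ± 0.20 (SD, n = 13) in HET and 1.48 ± 0.15 (n = 11) in WT kidneys, a log2 difference of 0.19 with p = 0.0133 and an adjusted p of 0.0548. The ratio of Aqp2 to Aqp4 averaged 7.61 ± 1.501 (n = 13) and 6.34 ± 1.04 (n = 11), a log2 difference of 0.27 with p = 0.0137 and an adjusted p of 0.0548. Both had the same sign in the 2 batches, at 0.16 and 0.22 for Aqp2 to Aqp3 and 0.33 and 0.21 for Aqp2 to Aqp4. Without the 3 libraries the 2 differences were 0.16 and 0.24, each with an adjusted p of 0.216, and in batch 1 alone they were 0.07 (exact permutation p 0.54) and 0.27 (exact permutation p 0.175). On log2 CPM of all 24 mice, Aqp2 to Aqp3 differed by 0.20 (adjusted permutation p 0.0706) and Aqp2 to Aqp4 by 0.25 (adjusted 0.156).

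The genotype difference in ENaC subunit ratios was also taken within each batch, and whether it differs between the batches was not tested. Scnn1b to Scnn1a differed by 0.0020 (log2, HET minus WT) in batch 1 and by -0.22 in batch 2, where the exact permutation p was 0.0177. Scnn1g to Scnn1a differed by 0.07 in batch 1 and by -0.16 in batch 2, with an exact permutation p of 0.0126. These p-values were unadjusted, with 8 ratios tested in each batch. Both ratios share the denominator Scnn1a, whose own exact permutation p in batch 2 was 0.0354, so they are not independent results. Over all mice the 2 differences were -0.11 and -0.04, with adjusted permutation p-values of 0.219 and 0.634. No ratio of the 8 passed the threshold over all mice.

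Of the 8 channel genes, 7 were called higher in batch 2 than in batch 1 by edgeR with genotype as a covariate, and 32.6% of all 18339 genes were called higher. The log2 differences ran from 0.17 for Aqp2, which was not called (adjusted p 0.0784), to 0.35 for Aqp4 (interval 0.22 to 0.48, edgeR adjusted p 1.77e-05), with a median of 0.23 beside 0.03 over all genes. Avpr2 differed by 0.34, Scnn1b and Scnn1a by 0.25 each, Aqp3 by 0.21, and Scnn1g and Fxyd4 by 0.20 and 0.19. The call depended on scaling: by library size alone 2 of the 8, Aqp4 and Avpr2, were called higher, beside 2282 of 18339 genes. The 8 differences then ran from 0.03 to 0.21, and the median over all genes was -0.11. Without the 3 libraries 6 of the 8 were called higher, beside 5589 of 18339 genes. Batch is the submitters' label and what differed between the batches is not stated. Of the lists of the same duct, other principal cell genes were called higher for 9 of 14 genes (2 lower) and intercalated cell markers for 8 of 15. Vasopressin genes were called higher for 9 of 19 (3 lower) and sodium pump and FXYD genes for 4 of 7. Genes of the aldosterone response were called higher for 2 of 13 and lower for 3. Osmolyte and urea genes were called higher for 3 of 8 (2 lower) and other aquaporins for 2 of 5 (2 lower). Thick ascending limb and distal convoluted tubule markers were called higher for 5 of 10 (2 lower) and injury markers for 4 of 10. Among the other lists, fibrosis genes were called higher in batch 2 for 7 of 10 genes, urothelium markers for 5 of 8 and proximal tubule markers for 0 of 10, with 4 of those 10 called lower; their part in the difference of the channel genes was not tested.

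The 8 genes did not vary as 1 block between mice. After batch means were subtracted from log2 CPM, the 28 pairs had a median Pearson r of 0.16, beside 0.003 over all pairs of 15360 genes with a mean of at least 1 CPM, and 19 of 28 were positive. An r of at least 0.5 was found in 2 pairs, or 7.14%, beside 3.36% of all pairs. Genes of a library share its scaling, which also bears on r: on log2(TPM + 1), 16 of 28 pairs had an adjusted p below 0.05 by permutation. The share over all gene pairs was not taken on that scale, so this count cannot be read as particular to the channel genes.

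**Figure D4:**
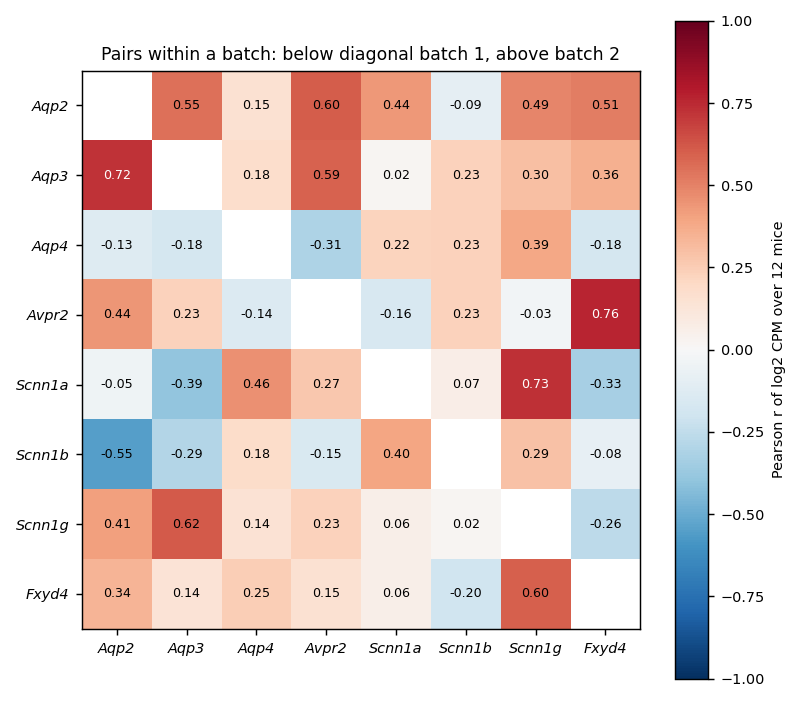
Pearson r of log2 CPM for each pair of channel genes over the 12 mice of batch 1 (below the diagonal) and the 12 mice of batch 2 (above the diagonal). Colour and printed values give r. Aqp2 with Aqp3 is positive in both (0.72 and 0.55), whereas Scnn1a with Scnn1g is 0.06 in batch 1 and 0.73 in batch 2.

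Aqp2 and Aqp3 were the pair that varied together most. Their r was 0.64 over 24 mice, with a permutation p of 0.00116 and an adjusted p of 0.0325 over 28 pairs, and Spearman's rho was 0.60, with p = 0.00329 and an adjusted p of 0.0921. Within batches r was 0.72 and 0.55. WT replicate 4 was lowest in both genes of batch 1, at 43.4 CPM of Aqp2 and 41.5 CPM of Aqp3, and HET replicate 11 was highest for Aqp2 in batch 2, at 95.6 CPM. Without these 2 mice, the farthest from the median of Aqp2, r was 0.50. Leaving out WT replicate 4 alone gave 0.53, with an adjusted permutation p of 0.404. Without the 3 libraries at odds with their labels r was 0.66 and its adjusted permutation p 0.054. The call was also lost when any 1 of HET replicates 1, 5, 6, 7 and 11 or WT replicates 6 and 9 was left out. The adjusted permutation p was then 0.0504 to 0.106. The call held without WT replicate 1 (adjusted 0.0417) or WT replicate 2 (adjusted 0.0244).

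Avpr2 followed Aqp2 with r = 0.51 (permutation p 0.0137, adjusted 0.192) and rho = 0.38 (p 0.0726, adjusted 0.318). Within batches r was 0.44 and 0.60, and with each mouse left out it ran from 0.36 to 0.58. Without the 2 mice farthest from the Aqp2 median r was 0.22. Taking out extreme values can itself lower r, so that fall does not show how far the relation rested on them. On log2 CPM the ENaC subunits did not vary as a set: Scnn1a with Scnn1g had r = 0.42 (p 0.048, adjusted 0.192; rho 0.42), Scnn1a with Scnn1b r = 0.27 (adjusted 0.546; rho 0.17) and Scnn1b with Scnn1g r = 0.11 (adjusted 0.770; rho 0.16), all by permutation. None of these passed after adjustment. Within batches, Scnn1a with Scnn1g was 0.06 and 0.73, Scnn1a with Scnn1b 0.40 and 0.07 and Scnn1b with Scnn1g 0.02 and 0.29. The result depended on the scale. On log2(TPM + 1), Scnn1a with Scnn1g was 0.58 (adjusted permutation p 0.00833) and Scnn1b with Scnn1g 0.63 (adjusted 0.00656). Scnn1a with Scnn1b was 0.44 there (adjusted 0.0541). Scnn1b was below 0 with Aqp2, at r = -0.37 (permutation p 0.0804, adjusted 0.250).

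**Figure D5:**
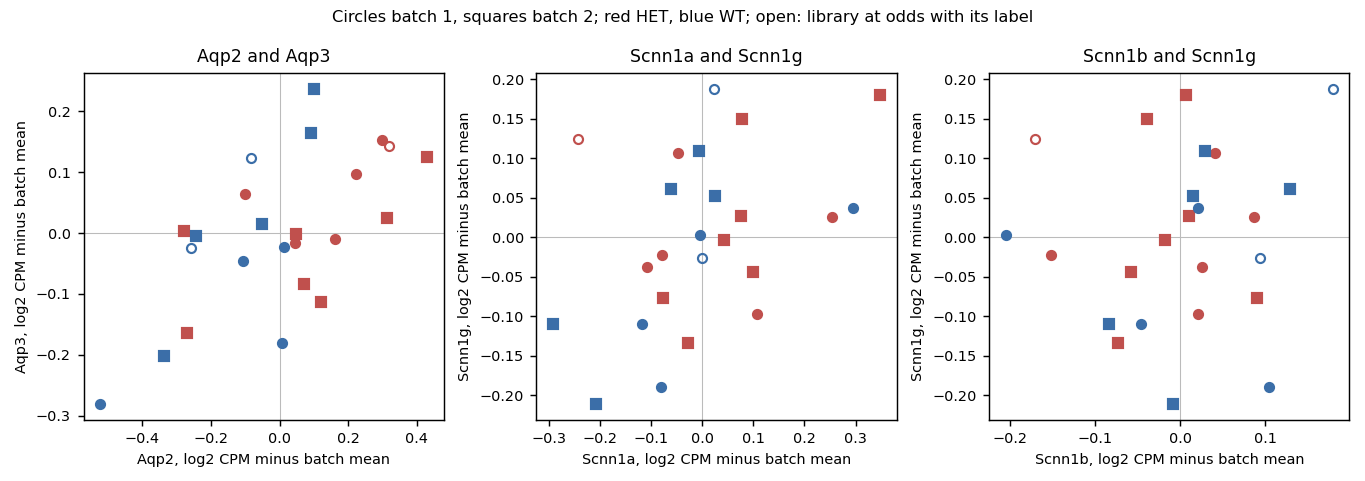
Log2 CPM minus the batch mean of Aqp2 against Aqp3, Scnn1a against Scnn1g and Scnn1b against Scnn1g, 1 point for each of 24 mice. Circles are batch 1, squares batch 2, red HET, blue WT, and open points the 3 libraries at odds with their labels. The left panel has r = 0.64, the middle 0.42 and the right 0.11.

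Each channel gene was also set against the mean log2 CPM of 7 lists of other cell types and states, 56 relations in all. The 1 with an adjusted permutation p below 0.05 was Scnn1a with the 15 intercalated cell markers (r = 0.68, p = 0.00046, adjusted 0.0258; rho = 0.57, adjusted 0.119). It was 0.59 in batch 1 and 0.75 in batch 2, and 0.62 without the 2 mice farthest from the Scnn1a median. Intercalated cells, which move acid and base, lie beside principal cells in the collecting duct. Scnn1a also had r = 0.54 with the thick ascending limb and distal convoluted tubule markers (permutation p 0.00836, rho 0.57). With the genes of medullary osmolyte and urea handling its r was 0.52 (permutation p 0.00991). Each had an adjusted p of 0.0925. Aqp3 had a positive r with the proximal tubule markers (r = 0.59, permutation p 0.00267, adjusted 0.0748) and a negative one with the tubular injury markers (r = -0.57, p 0.00453, adjusted 0.0846), neither past the threshold. Aqp2 had r = 0.54 with genes of medullary osmolyte and urea handling (permutation p 0.00725, adjusted 0.0925). What part the mix of segments in a kidney sample has in these relations was not tested.

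The genes most like each channel gene across the 24 mice, by r of batch-centred log2 CPM among 15359 others, are a description without a test. Scnn1a had the closest: Kcnj10, a potassium channel of the distal nephron, at r = 0.89, Acnat2 at 0.84 and Tfcp2l1, a transcription factor of collecting duct cells, at 0.82. For Kcnj10 the value was 0.88 in batch 1 and 0.90 in batch 2. Those of Aqp2 were Trim16 (0.76), Pgm5 (0.72) and Nccrp1 (0.72), with Aqp3 at rank 20. For Aqp3 they were Slc5a9 (0.80), Pitpnc1 (0.78) and Slc34a3 (0.76), the last a sodium phosphate cotransporter of the proximal tubule, with Aqp2 at rank 32. Scnn1g was closest to Cdk18 (0.76), Bmp7 (0.75) and Klf15 (0.73). Scnn1b was closest to Gm22486 (0.76), Thtpa (0.72) and Rnu12 (0.69). Aqp4 was closest to Rpl3l (0.73), Gngt2 (0.67) and Ccdc149 (0.67). Gngt2 was at 0.84 in batch 1 but 0.17 in batch 2, and Rpl3l averaged 1.04 CPM, near the cutoff of 1. Avpr2 was closest to Gpr107 (0.70), Gcgr (0.68) and Mtg2 (0.66). Fxyd4 was closest to Senp3 (0.70), Gm5141 (0.65) and 1700028J19Rik (0.65). No channel gene was among the first 3 of another.

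Genes upstream and downstream of the channels did not pass the threshold for genotype either. In the comparison of HET with WT over all mice, edgeR called 0 genes in either direction in each of the lists that follow, and every gene named from them had an adjusted p of 0.997. Of 19 genes of vasopressin signalling and water channel trafficking, 14 had a positive log2 fold change, with a median of 0.02. The 2 of smallest p were Prkar2a, a regulatory subunit of protein kinase A (0.05, unadjusted p 0.154), and Vamp2, a vesicle fusion protein (0.06, p 0.16). Gnas, the stimulatory G protein to which the V2 receptor couples and the most abundant of the list at 283 ± 21.2 FPKM (SD, n = 24), had a log2 fold change of 0.01.

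Of 13 genes of the aldosterone response, 10 were positive, with a median of 0.05. The median was -0.02 in batch 1 (6 of 13 positive) and 0.10 in batch 2 (10 of 13). Sgk1, the kinase that keeps ENaC at the membrane, was at 0.42 (log2, standard error 0.17; edgeR unadjusted p 0.0224, adjusted 0.997). Per1, a circadian gene that aldosterone induces, was at 0.67 (standard error 0.33; unadjusted p 0.0536). Klk1, a protease of the distal nephron at 868 FPKM, had 0.05. Among 7 tested sodium pump and FXYD genes the median was 0.04, with Fxyd5 at 0.10 and Fxyd2, at 1729 FPKM, at 0.03. Their median was -0.05 in batch 1 (2 of 7 positive) and 0.12 in batch 2 (5 of 7).

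Of 14 other principal cell genes, 10 were positive with a median of 0.04, led by Apela, which encodes a ligand of the apelin receptor (0.17, edgeR unadjusted p 0.028), and Ptges, a prostaglandin E synthase (0.12, unadjusted p 0.0587). The median of these 14 was -0.0024 in batch 1 (7 of 14 positive) and 0.08 in batch 2 (11 of 14). Kcnj1, the ROMK potassium channel, was at 66.6 FPKM with a log2 fold change of 0.08. The 5 tested other aquaporins had a median of 0.03, with Aqp6, of intercalated cells, at 0.09 and Aqp1, of the proximal tubule, at 0.05. The 8 osmolyte and urea genes had a median of 0.10, with Slc5a3 at 0.21, Slc6a12 at 0.25 and Slc6a6 at 0.03.

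Of the marker lists of other cells and states, intercalated cells had a median of 0.03 (Dmrt2 0.20, Slc4a1 -0.08, Atp6v1b1 0.03). It was -0.04 in batch 1 (5 of 15 positive) and 0.04 in batch 2 (10 of 15). The thick ascending limb and distal convoluted tubule had 0.08, which was -0.04 in batch 1 (2 of 10 positive) and 0.16 in batch 2 (9 of 10). Umod, the most abundant gene of that list at 1397 FPKM, had a log2 fold change of 0.11 (edgeR unadjusted p 0.0101), and Slc12a1 had 0.08. Proximal tubule markers had a median of 0.01 (Slc22a6 -0.08, unadjusted p 0.0289, Slc5a2 -0.07, Slc34a1 -0.04). Injury markers had a median of 0.03 (Cdkn1a 0.18, Plaur 0.13, Spp1 0.01) and fibrosis genes 0.01 (Tagln 0.17, Acta2 0.15, Bgn 0.02). The fibrosis median was 0.11 in batch 1 (10 of 10 positive) and -0.08 in batch 2 (2 of 10). Urothelium markers, which a sample can carry from the renal pelvis, had a median of 0.09 (Krt15 0.43, unadjusted p 0.0144, Upk1a 0.14, Psca 0.07), and Psca, their most abundant, was at 7.30 FPKM.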

How the data were processed

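Kidney RNA of 24 mice was sequenced, with 1 library per mouse. The authors deposited 1 table with expected counts, TPM and FPKM per gene and library. They used fastp, STAR, featureCounts and the GRCm38 (mm10) build, per the submitters' processing notes; the sources used here do not give versions, annotation or strand setting. As deposited, 11.8% to 15.4% of a library's expected counts were not whole, and all were rounded. Deposited TPM could not be compared between batches, because 5 short non-coding RNAs (Rn7s1, Rn7s2, Rn7sk, Rpph1 and Rmrp) took 49.4% to 54.6% of TPM in batch 1 and 0.0348% to 0.129% in batch 2; levels between genes are therefore given in the FPKM that the authors deposited, and TPM served for ratios within a library. The title and library name of HET replicate 8 disagree on its number, and the column that carries the latter was used.

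Genes were kept by filterByExpr (minimum count 10), scaled by TMM and tested with edgeR 4.0.16 (quasi-likelihood, robust, Benjamini-Hochberg over 18339 genes, threshold 0.05, intervals at 95%). DESeq2 1.42.0 and limma 3.58.1 served as alternatives. Correlations used log2 CPM with a prior count of 2, batch means subtracted and 100000 permutations within batch. The tests were tried on simulated data. Replicate numbers follow the order of deposition and pair nothing. Coordinates are GENCODE M21, in which 55141 identifiers were found, and promoter windows are from RefSeq. The channel genes and lists were chosen with earlier results of these data known. Named genes are the 8, Nbl1, the 2 of smallest p and the most abundant of every other list, and the 3 most alike; Htr6 was named after its values were seen. Of the genes this rule takes, 1 is not reported here. Scaling by library size alone was an alternative chosen after seeing the data.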

Additional observations from a re-analysis of the deposited data

Results flagged for a closer look

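Within a genotype and batch, 4 single values lay farther from their group than Dixon's 95% limit allows, among 32 groups of 5 to 7 mice; chance flags about 1 in 20 groups. HET replicate 11 of batch 2 was high for Avpr2, at 11.6 CPM with the next HET mouse at 9.23, and for Fxyd4, at 13.5 CPM with the next at 10.7. The same mouse was the highest of its group for Aqp2 and Aqp3. HET replicate 9 of batch 2 was high for Scnn1a, at 101 CPM with the next at 85.4, and WT replicate 3 of batch 1 was high for Scnn1a, at 81.9 CPM with the next at 67.8. No cause was tested.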

How the results depend on the processing

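No channel gene was called for genotype under any alternative run, over all mice, within a batch or in the interaction. No paired analysis was possible because replicate numbers were given in order of deposition and pair no mice. Calls over all genes moved: without the 3 libraries at odds with their labels, 2 were called over all mice and 2 in batch 1; DESeq2 called 1 in batch 1 and 26 in batch 2; library size scaling called 2 in batch 2 and 14 in the interaction. Leaving out each mouse gave 1 to 3 calls in batch 2. By library size scaling 2 channel genes were called higher in batch 2, beside 2282 of 18339 genes. Called pairs numbered 16 on log2(TPM + 1), 0 without the 3 libraries, and 0 to 2 with each mouse left out. No share over all gene pairs was taken for these settings. The cause of these moves was not tested.

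Fold changes turned sign only where they were not called. Over all mice, log2(TPM + 1), log2(TPM + 0.1) and library size scaling gave -0.0073, -0.0052 and -0.029 for Aqp3, -0.017, -0.015 and -0.027 for Scnn1g, and -0.012, -0.01 and -0.034 for Fxyd4. Avpr2 was -0.0051 on log2(TPM + 1), Aqp4 0.012 without batch, and Fxyd4 -0.022 without the 3 libraries. The interaction, without the 3 libraries and by library size, was -0.073 and -0.16 for Aqp4, -0.0804 and -0.14 for Scnn1b, and -0.044 and -0.16 for Scnn1g; for Fxyd4 it was 0.0038 without the 3. In batch 1, Aqp4 was 0.037 without the 3 and 0.0024 by library size, Scnn1b 0.032 and Fxyd4 -0.024 without the 3. Scnn1g in batch 2 was -0.11 by library size. With each mouse left out, values ran over all mice from -0.0033 to 0.063 (Aqp3), -0.0615 to 0.0089 (Aqp4) and -0.023 to 0.054 (Fxyd4). In batch 1 they ran from -0.091 to 0.039 (Aqp4) and -0.094 to 0.027 (Scnn1a). In batch 2 they ran from -0.064 to 0.023 (Aqp4), -0.091 to 0.028 (Avpr2), -0.10 to 0.035 (Fxyd4) and -0.0304 to 0.0465 (Scnn1g).

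Correlations that turned to positive on log2(TPM + 1) were Aqp2 with Aqp4 (0.32) and Scnn1b (0.20), Aqp3 with Aqp4 (0.43), Scnn1a (0.15) and Scnn1b (0.49), Aqp4 with Avpr2 (0.17), Avpr2 with Scnn1b (0.38), and Fxyd4 with Scnn1a (0.22) and Scnn1b (0.49). Without the 3 libraries Aqp2 with Aqp4 was 0.087, Aqp3 with Aqp4 0.0033 and Avpr2 with Scnn1b 0.0703, and the last was 0.0037 with genotype means removed. With each mouse left out, r ran from -0.092 to 0.096 (Aqp2 with Aqp4), -0.19 to 0.068 (Aqp3 with Aqp4), -0.26 to 0.0101 (Aqp3 with Scnn1b), -0.054 to 0.24 (Aqp4 with Fxyd4), -0.11 to 0.082 (Avpr2 with Scnn1b), -0.082 to 0.23 (Avpr2 with Scnn1g) and -0.051 to 0.23 (Scnn1b with Scnn1g).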
